A study of Mus musculus with 12 samples.

Results

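The genes described here encode the collagen IV network of basement membranes and the proteins that tie it to laminin: the 6 collagen IV chains (Col4a1 to Col4a6), the 2 nidogens (Nid1 and Nid2) and the heparan sulfate proteoglycans perlecan (Hspg2) and agrin (Agrn). They were taken by symbol, through the Entrez gene number of each line of the deposited table, and all 10 were found among the 24570 named genes. The RNA came from whole retina, 1 array per animal, of 6 diabetic and 6 normoglycaemic control mice, all male and given as outbred C57BL6/J. Diabetic mice had received 160 mg/kg of streptozotocin, a toxin of the insulin-producing beta cells, into the peritoneum at 8 weeks of age and 24 to 26 g, with a blood glucose above 15 mM required 7 days later, whereas control mice are labelled as given no streptozotocin. The labels place the diabetic retinas 6 weeks after induction and the control retinas at the same time, whereas the series text calls the diabetic mice 6 weeks old, which is at odds with an injection at 8 weeks, so the age is not settled here. Streptozotocin destroys beta cells chemically, so an effect of the drug itself on the retina cannot be told apart from that of high glucose in this design. The animal numbers in the labels fall in separate ranges for diabetic and control mice, and if they mark cohorts, which the labels do not say, cohort and diabetes cannot be told apart in any difference given here.

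Collagen IV is the structural core of every basement membrane. Its chains wind into triple helices, of which α1α1α2 is found almost everywhere, while α3α4α5 and α5α5α6 occur in selected membranes, and the chains are encoded by 3 gene pairs that lie head to head. Nidogens bind both the laminin γ1 chain and collagen IV, and perlecan and agrin join the same lattice through laminin and nidogen and hold growth factors on their heparan sulfate chains. In the retina these proteins make up the sheath around capillaries, which thickens in long-standing diabetes, and the inner limiting membrane on the endfeet of Mueller glia.

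In the RefSeq annotation of GRCm38.p6, Col4a1 and Col4a2 neighbour each other on chromosome 8, Col4a3 and Col4a4 on chromosome 1, and Col4a5 and Col4a6 on the X chromosome. Nid1 lies on chromosome 13, Nid2 on chromosome 14, and Hspg2 and Agrn both on chromosome 4. RefSeq windows from 250 bases before to 50 bases after a gene start were found for 8 of the 10 genes, 9 windows in all, since Agrn has 2. The stretch shared by the Col4a1 and Col4a2 windows is shown first because 1 sequence lies in the start windows of 2 genes whose values are compared below, and 1 window each of Agrn (the one with more GC boxes) and Hspg2 because this pair had the largest shift of the 5 pairs compared below. All are from RefSeq, GRCm38.p6, written 5′ to 3′, and capitals mark the GC box, GGGCGG or CCGCCC on the other strand, which is the textbook site of Sp1. The shared stretch is at chr8:11312777-11312854 on the plus strand, the Agrn window at chr4:156197439-156197738 and on the minus strand, and the Hspg2 window at chr4:137468553-137468852 on the plus strand.
Col4a1 and Col4a2, shared 78 bases: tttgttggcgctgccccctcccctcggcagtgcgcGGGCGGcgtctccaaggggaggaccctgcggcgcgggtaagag
Agrn: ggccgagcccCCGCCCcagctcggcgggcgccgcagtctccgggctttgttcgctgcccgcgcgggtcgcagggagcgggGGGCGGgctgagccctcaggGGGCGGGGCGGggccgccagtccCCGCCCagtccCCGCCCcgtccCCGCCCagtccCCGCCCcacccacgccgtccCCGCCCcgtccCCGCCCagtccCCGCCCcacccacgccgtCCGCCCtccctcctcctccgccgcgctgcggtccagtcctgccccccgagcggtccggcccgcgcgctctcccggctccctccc
Hspg2: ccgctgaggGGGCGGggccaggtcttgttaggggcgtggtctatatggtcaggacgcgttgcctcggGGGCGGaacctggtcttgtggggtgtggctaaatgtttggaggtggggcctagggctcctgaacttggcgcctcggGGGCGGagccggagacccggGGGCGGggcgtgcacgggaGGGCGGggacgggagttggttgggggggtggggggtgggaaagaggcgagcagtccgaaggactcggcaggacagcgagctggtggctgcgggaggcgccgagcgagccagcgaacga
The Agrn window shown held 12 GC boxes and the Hspg2 window 5, while the shared collagen stretch held 1. Of all 32851 windows, 35.7% held at least 1 GC box, 2.71% held 5 or more and 0.0213% held 12 or more. The second Agrn window, at chr4:156186210-156186509 on the minus strand, held 2 GC boxes and had a GC content of 61.3%, above 74.2% of all windows. The GC content was 83.3% in the Agrn window shown and 70.3% in the Hspg2 window, above 99.7% and 91.2% of all windows. None of the 9 windows held TATAAA or CACGTG, searched on both strands, which 13.6% and 7.15% of all windows held. A match of letters is a description of the sequence and shows no binding.

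Values are log2 RMA values, which gave all arrays 1 common distribution between 5.07 and 14.10, its median at 5.73. Correlations between arrays ran from 0.993 to 0.998. A defining marker of the labelled tissue, Rlbp1 of Mueller glia, was high on every array, from 10.95 to 11.59. Endothelial markers covered a wide range of values, with Cdh5 from 6.04 to 6.41 and Cldn5 from 5.64 to 5.84, near the array median, but Kdr from 10.26 to 10.94. Lens genes varied most between arrays, with Cryaa from 6.30 to 11.73 and the means of the 12 lens markers highest in diabetic 6 (7.74) and diabetic 2 (7.18). The lens capsule is itself a collagen IV basement membrane, so results without these 2 arrays are given below.

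None of the 10 genes passed the test between diabetic and control retinas, which was limma at a threshold of 0.05 after Benjamini-Hochberg adjustment across the 24570 genes. The genes stayed within a narrow range of log2 changes, from -0.083 for Col4a5 to 0.16 for Agrn. Agrin had the highest change (1.12-fold; adjusted p = 0.0697), while perlecan, Col4a1 and Col4a5 had values of about -0.08. Of all genes tested, 3.24% passed (1.47% higher and 1.77% lower), so 0 of 10 is near the background. At a looser threshold of 0.10 the count was 1 of 10, Agrn, against 8.01% of all genes. The groups overlapped for all 10 genes, whereas they did not overlap for 2.84% of all genes. At an unadjusted limma p under 0.05 there were 3 of the 10 (Agrn, Hspg2 and Col4a1), against 21% of all genes. The median change was -0.015 over the 10 genes and -0.002 over all genes, and 7 of the 10 values were below 0, as were 51.8% over all genes. In whole tissue, fewer cells of a type and less RNA per cell cannot be told apart.

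**Figure D1:**
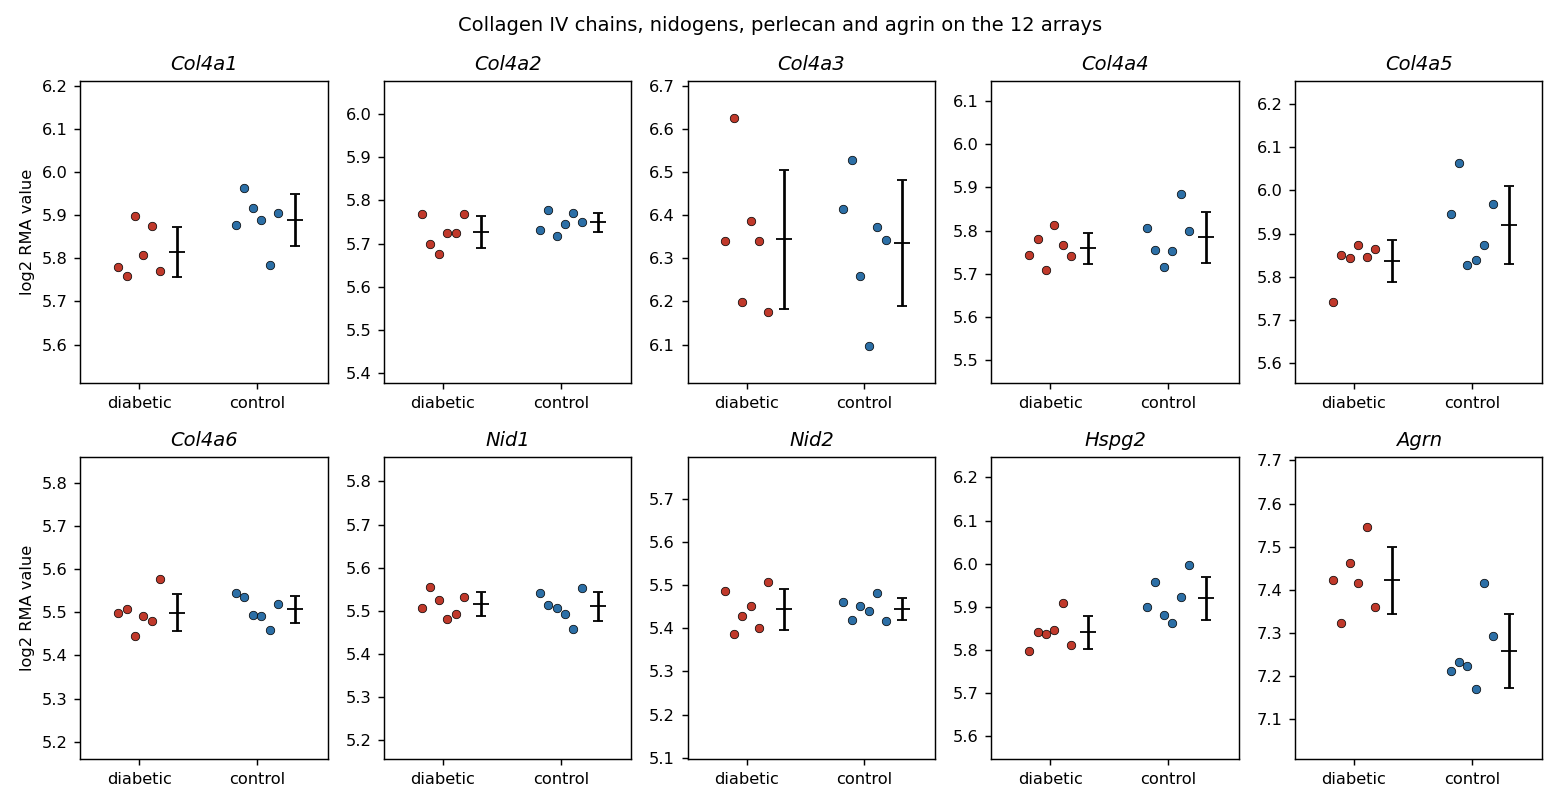
Log2 RMA values (vertical axes, each spanning the same 0.7 log2 units) of the 10 genes in the 6 diabetic (red) and 6 control (blue) retinas, with a point per array and the mean ± SD beside the points. The groups overlap for all 10 genes, least for Agrn and Hspg2.

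Col4a1 and Col4a2 encode the chains of the common α1α1α2 network, which endothelium, pericytes and glia lay down. Col4a1 had a lowest, median and highest log2 value of 5.76, 5.79 and 5.90 in diabetic retinas and of 5.78, 5.90 and 5.96 in control retinas. In 3 of the 6 diabetic arrays it lay below the lowest control, and the lowest control, number 5, lay below the other 5, which ran from 5.88 upward. Its log2 change was -0.075 ± 0.033 (SE, n = 6 per group; 95% interval -0.15 to -0.0030; limma adjusted p = 0.218). Without diabetic 2 and 6, the arrays with the highest lens means, the change was -0.049 (limma adjusted p = 0.497). Of the 25 alternative fits this gave the smallest change. Col4a2 had values of 5.68, 5.73 and 5.77 in diabetic retinas and of 5.72, 5.75 and 5.78 in control retinas (lowest, median, highest). The groups of Col4a2 overlapped over most of their range, and the change was -0.022 ± 0.019 (95% interval -0.063 to 0.019; limma adjusted p = 0.555). Leaving out 1 array in turn moved the change of Col4a2 between -0.030 without diabetic 6 and -0.011 without diabetic 3. A rise of Col4a2 above 1.01-fold or a fall beyond 1.04-fold lies outside the 95% interval. This bounds the array value only, since Col4a2 averaged 5.74, near the array median of 5.73. How far its signal stood above background is not known here.

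Col4a3 and Col4a4 encode chains of the α3α4α5 network, best known from the kidney glomerulus, the lens capsule and the inner limiting membrane. Col4a3 was the most variable of the 10 genes, with 6.18, 6.34 and 6.62 in diabetic retinas and 6.10, 6.36 and 6.53 in control retinas (lowest, median, highest). Its spread within groups (SD 0.15) was above that of 94.8% of all genes, and the groups covered the same range. The change was 0.0093 ± 0.082 (95% interval -0.17 to 0.19; limma adjusted p = 0.964), an interval that holds changes of up to 1.14-fold upward and 1.13-fold downward. Col4a4 had 5.71, 5.76 and 5.81 in diabetic retinas against 5.72, 5.78 and 5.88 in control retinas. Its change was -0.026 ± 0.028 (limma adjusted p = 0.635), and it ran from -0.040 without control 3 to -0.0064 without control 5.

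Col4a5 joins both of the restricted networks, and Col4a6 joins the α5α5α6 network of epithelial and smooth muscle membranes. Col4a5 had 5.74, 5.85 and 5.87 in diabetic retinas and 5.83, 5.91 and 6.06 in control retinas (lowest, median, highest). All 6 diabetic values lay below the control mean of 5.92, but the highest control array was at 6.06, and 3 control arrays, at 5.83, 5.84 and 5.87, lay within the diabetic range. The change of Col4a5 was -0.083 ± 0.040 (95% interval -0.17 to 0.0037; limma adjusted p = 0.259), and was -0.054 without control 2. Col4a6 averaged 5.50 ± 0.04 in diabetic retinas and 5.51 ± 0.03 in control retinas (SD, n = 6 each), below the median of the gene means (5.74). The change of this dim gene was -0.0076 ± 0.022 (limma adjusted p = 0.883).

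The nidogens link laminin to collagen IV, and Nid1 is the main form in most basement membranes. Nid1 averaged 5.52 ± 0.03 in diabetic retinas and 5.51 ± 0.03 in control retinas, and Nid2 5.44 ± 0.05 and 5.44 ± 0.03. Both had values within 0.05 log2 units of no change at either end of the 95% interval (-0.037 to 0.045 for Nid1 and -0.049 to 0.048 for Nid2), with limma adjusted p of 0.922 and 0.992. Both also lay below the median of the gene means, and how far their signal stood above background is not known here.

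Perlecan and agrin are large heparan sulfate proteoglycans of the same membranes. Perlecan, from Hspg2, is a product of vessels and other matrix-forming cells, whereas agrin, known for gathering acetylcholine receptors at the nerve-muscle junction, is also made by neurons and glia. Agrn had a lowest, median and highest log2 value of 7.32, 7.42 and 7.55 in diabetic retinas and of 7.17, 7.23 and 7.42 in control retinas. All 6 diabetic values were above the control mean of 7.26, and 3 were above the highest control, which was control 5. The change was 0.16 ± 0.04 (95% interval 0.066 to 0.26; limma adjusted p = 0.0697), just short of the threshold. Without control 5 it was 0.19 and passed (limma adjusted p = 0.0256), and over all 25 alternative fits the adjusted p ran from 0.0256 to 0.136.

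Hspg2 lay at 5.80, 5.84 and 5.91 in diabetic retinas against 5.86, 5.91 and 6.00 in control retinas (lowest, median, highest). In 5 of the 6 diabetic arrays it was below the lowest control, and diabetic 5 alone fell inside the control range. The change was -0.079 ± 0.025 (95% interval -0.13 to -0.024; limma adjusted p = 0.106), and Hspg2 passed in 0 of the 25 alternative fits. Without diabetic 2 and 6, the arrays with the highest lens means, none of the 10 genes passed. The change was then 0.20 for Agrn (limma adjusted p = 0.0652) and -0.073 for Hspg2 (limma adjusted p = 0.234).

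**Figure D2:**
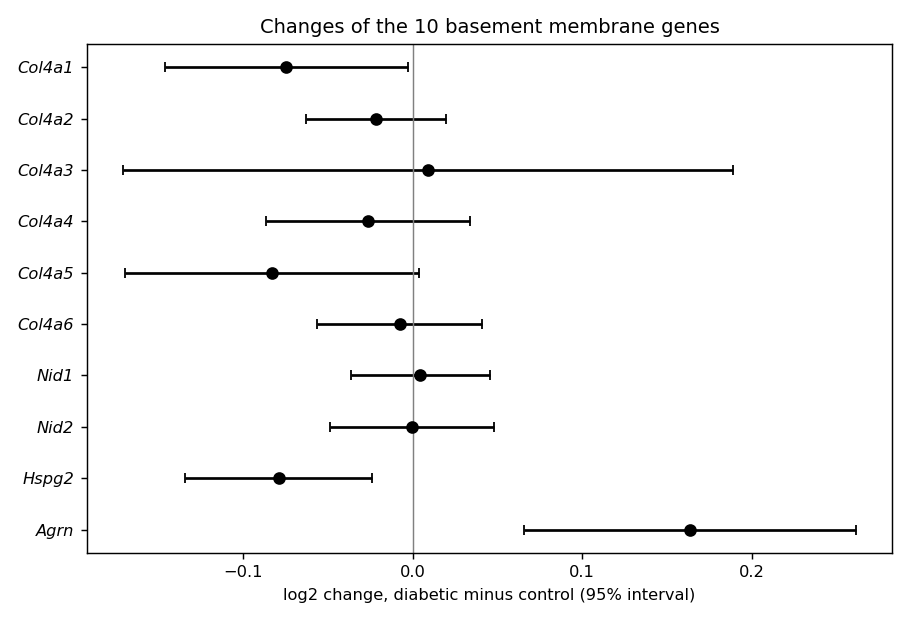
Log2 change (horizontal axis, diabetic minus control) of each of the 10 genes with its 95% interval from limma, 6 arrays per group. The intervals of Agrn (0.066 to 0.26), Hspg2 (-0.13 to -0.024) and Col4a1 (-0.15 to -0.0030) leave out 0 before adjustment over all genes, and Col4a3 has the widest.

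The difference between partner genes on the same array was compared for 5 pairs, to see whether they changed unequally, by exact permutation of the group labels (two-sided), with adjustment over the 5. Among the 5 pairs only Hspg2 minus Agrn passed, with a lower difference in diabetic retinas. How many other pairs of genes would pass was not measured. Of all genes taken singly, 21% had an unadjusted limma p under 0.05. The within-array log2 difference Hspg2 minus Agrn averaged -1.58 ± 0.06 in diabetic retinas and -1.34 ± 0.08 in control retinas (SD, n = 6 each), a shift of -0.24 ± 0.04 (SE; exact permutation p = 0.00433, adjusted p = 0.0216). Only the shift is read here, since the levels of 2 different genes on an array are not on a common scale. In 5 of 6 diabetic arrays the difference was below the lowest control value, and the sole overlap was between diabetic 2 (-1.48) and control 5 (-1.49). The ratio of the Agrn to the Hspg2 array value was thus 1.18-fold higher in diabetic retinas, without showing which of the 2 genes changed. Hspg2 averaged 5.88, against an array median of 5.73, and how far its signal stood above background is not known here. The adjusted exact permutation p ran from 0.0108 to 0.0325 when each array was left out in turn and was 0.0649 with medians in place of means.

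No pair of collagen chains and neither nidogen moved apart from its partner beyond the spread. The shift of Col4a1 minus Col4a2 was -0.053 ± 0.044 (exact permutation p = 0.258, adjusted p = 0.429), that of Col4a3 minus Col4a4 0.036 ± 0.081 (p = 0.669, adjusted p = 0.836 in the exact permutation test) and that of Col4a5 minus Col4a6 -0.075 ± 0.038 (exact permutation p = 0.0736, adjusted p = 0.184). For Nid1 minus Nid2 it was 0.0050 ± 0.032 (exact permutation p = 0.879, adjusted p = 0.879).

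**Figure D3:**
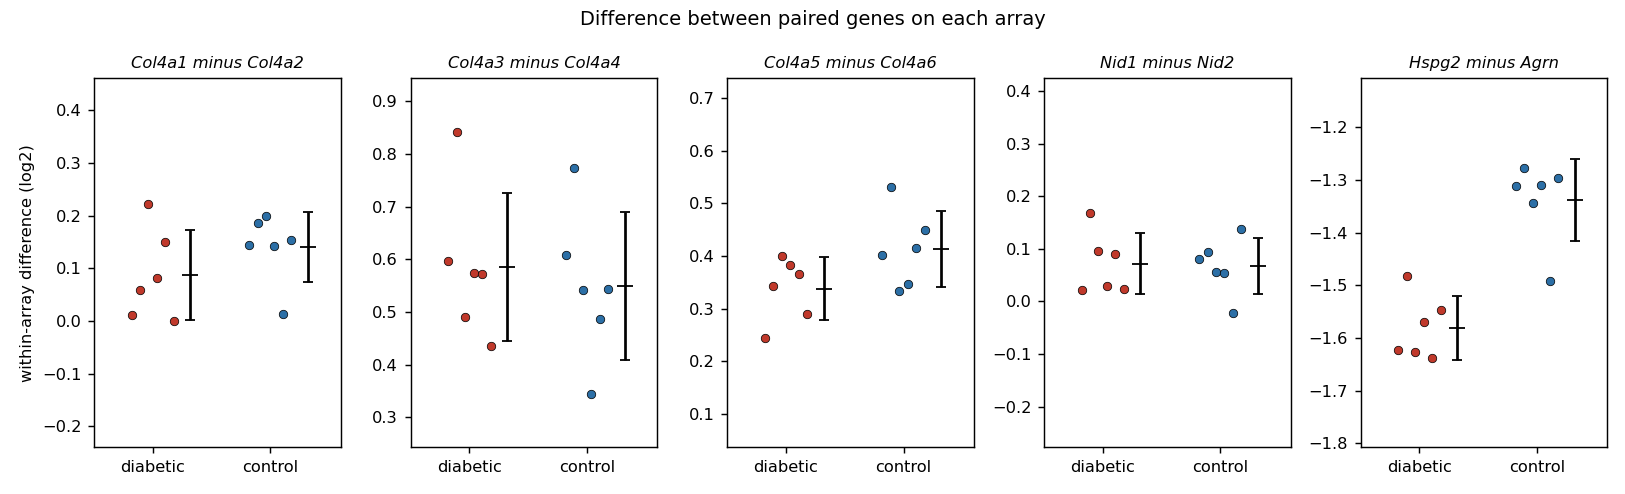
Within-array log2 difference (vertical axes, each spanning the same 0.7 log2 units) between paired genes in the 6 diabetic (red) and 6 control (blue) retinas, with a point per array and the mean ± SD. For Hspg2 minus Agrn, 5 of 6 diabetic arrays lie below the lowest control array, and the other 4 pairs overlap widely.

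How far paired collagen genes varied together from animal to animal was described with correlations. Over the 12 arrays, with each value taken as its deviation from the mean of its group, Col4a1 and Col4a2, whose start windows share the 78 bases shown above, had a Pearson r of -0.38 (permutation p = 0.242, adjusted p = 0.242 over 3 relations) and a Spearman coefficient of -0.33 (permutation p = 0.334, adjusted p = 0.334). Without the 2 arrays farthest from the median, diabetic 3 and control 5, r was -0.045, so the negative value rested on these arrays. Col4a3 and Col4a4 had r = 0.42 (permutation p = 0.187, adjusted p = 0.242) and a Spearman coefficient of 0.64 (permutation p = 0.0356, adjusted p = 0.0897), with r = 0.37 without the 2 farthest arrays. Col4a5 and Col4a6 had r = 0.42 (permutation p = 0.141, adjusted p = 0.242) and a Spearman coefficient of 0.59 (permutation p = 0.0598, adjusted p = 0.0897), with r = 0.43 without the 2 farthest arrays. Within diabetic and control arrays apart, r was -0.56 and -0.12 for the first pair, 0.65 and 0.29 for the second and 0.15 and 0.70 for the third, with exact permutation p from 0.117 to 0.843 (n = 6 each). None of the 3 relations passed after adjustment, which with 12 arrays does not show that the partners vary apart.

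Across all 45 pairs of the 10 genes, r of the deviations had a median of 0.11 and ran from -0.65 (Col4a1 and Col4a4) to 0.64 (Col4a5 and Hspg2), as a description of 12 arrays that share 1 normalization. Hspg2 and Agrn had r = 0.53, so within groups these 2 tended to be high or low on the same arrays although their group means differed in opposite directions. The genes whose deviations were most like those of Agrn, among 18427 genes at or above the 25th percentile of level, were Fam217b (r = 0.90), Mapre3 (0.90) and Maz (0.89). For Hspg2 they were Coa4 (0.94), Traj16 (0.92) and Kdm4a (0.91), and for Col4a1 they were Idh3g (0.93), Rassf2 (0.91) and Myl12a (0.91). The nearest to Col4a2 was Stra6l (0.92), to Col4a3 Fbxo34 (0.93), to Col4a4 Jmjd7 (0.93), to Col4a5 Cxcl17 (0.93) and to Col4a6 Tmem126b (0.96). The nearest to Nid1 was Nsrp1 (0.92) and to Nid2 Nbdy (0.92). With 12 arrays and so many genes searched, values of this size are a description only, and none of these genes belongs to the basement membrane lists used here.

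Lamc1 encodes the laminin γ1 chain, which holds the nidogen-binding site. It rose in diabetic retinas, where it lay between 6.88 and 7.09, against 6.43 to 6.70 in control retinas, with no overlap (log2 change 0.36 ± 0.05, 1.28-fold; limma adjusted p = 0.0104). It passed in all 25 alternative fits. It was the sole one of 11 laminin chains to pass (1 higher, 0 lower), against 1.47% higher and 1.77% lower among all genes. The groups did not overlap for 1 of the 11, against 2.84% of all genes. The median change over the 11 was -0.002, as over all genes. Lama1, of the early laminin network, had 0.051 ± 0.017 (limma adjusted p = 0.115).

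Among 20 genes that modify, fold, export or crosslink collagen, 0 passed, and the median change was 0.047. P4ha2, a subunit of the prolyl hydroxylase that stabilises the collagen helix, had the smallest p (0.11 ± 0.03; limma adjusted p = 0.0798). The crosslinking enzyme gene Tgm2 had 0.098 ± 0.031 (limma adjusted p = 0.105), and Mia3, whose protein loads collagen into secretory vesicles, 0.13 ± 0.05 (limma adjusted p = 0.156). The peroxidase gene Pxdn, whose product forms the sulfilimine bonds of collagen IV, had 0.090 ± 0.062 (limma adjusted p = 0.442). At an unadjusted limma p under 0.05 there were 6 of 20, 5 higher and 1 lower (Serpinh1), against 21% of all genes. Of the 20 values 12 were above 0 and 8 below. Among those below were Serpinh1 (-0.034 ± 0.014; limma adjusted p = 0.183) and P4hb (-0.091 ± 0.053; limma adjusted p = 0.358).

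Of 19 receptor genes, 0 passed (median 0.006), and 3 had an unadjusted limma p under 0.05, against 21% of all genes. Lrp4, the agrin receptor, averaged 7.31 ± 0.14 in diabetic retinas and 7.13 ± 0.09 in control retinas and had a change of 0.18 ± 0.06 (limma adjusted p = 0.143). Dystroglycan (Dag1), which binds laminin, perlecan and agrin, had -0.014 ± 0.073 (limma adjusted p = 0.936), and the integrin β1 gene Itgb1 0.15 ± 0.09 (limma adjusted p = 0.400). Itga1, the collagen IV-binding integrin α1, had -0.067 ± 0.025 (limma adjusted p = 0.149). Of 19 other basement membrane genes, 0 passed (median 0.012), and 3 had an unadjusted limma p under 0.05 (2 higher and 1 lower), against the same 21%. Smoc2, the lower one, had the smallest p (-0.068 ± 0.026; limma adjusted p = 0.162).

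Of 17 proteases and inhibitors, 1 passed, downward (median -0.014), against 1.77% lower among all genes. The groups did not overlap for 1 of the 17, against 2.84% of all genes. Ctsb, the lysosomal protease cathepsin B, averaged 11.92 ± 0.02 in diabetic retinas and 12.02 ± 0.05 in control retinas without overlap and fell by 0.10 ± 0.02 on the log2 scale (limma adjusted p = 0.0345). Its call was held in 4 of the 12 fits that left out 1 array, with adjusted p from 0.0251 to 0.0682, and was lost without any one of diabetic 2, 3, 4, 5 or 6 or of control 1, 2 or 3. Of the other 13 alternative fits 6 held it, and the adjusted p over all 25 reached 0.107. The gelatinase gene Mmp2 had 0.062 ± 0.027 (limma adjusted p = 0.206) and Mmp9 -0.049 ± 0.058 (limma adjusted p = 0.679).

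**Figure D4:**
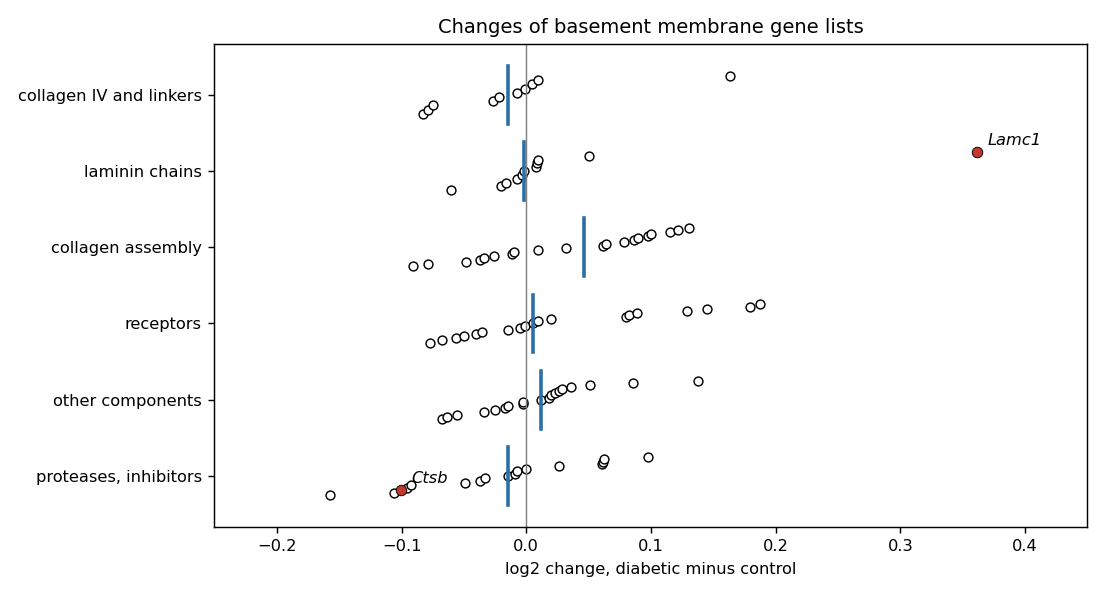
Log2 change (horizontal axis, diabetic minus control) of every gene in 6 lists of basement membrane genes, with a point per gene, filled red where the limma adjusted p is under 0.05, and a blue bar at the median of the list. Lamc1 (0.36) and Ctsb (-0.10) are the 2 genes that passed, and the 10 genes of collagen IV and its linkers lie between -0.083 and 0.16.

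The cell types that make these proteins were followed with marker lists. Endothelial markers had array means from 6.24 to 6.31 in diabetic retinas and from 6.24 to 6.29 in control retinas, with 0 of 15 past the test and the smallest p for the tight junction gene Cldn5 (-0.090 ± 0.026; limma adjusted p = 0.0803). Of the 15 values 9 were above 0, among them the VEGF receptor genes Kdr (0.26 ± 0.08; limma adjusted p = 0.0944) and Flt1 (0.12 ± 0.07; limma adjusted p = 0.390). For pericytes and smooth muscle the means ran from 6.09 to 6.17 in diabetic and from 6.10 to 6.16 in control retinas (0 of 10 past), with the smallest p for Notch3 (-0.089 ± 0.031; limma adjusted p = 0.130). Of these 10 values 4 were above 0 and 6 below. Astrocyte markers ran from 6.31 to 6.43 in diabetic and from 6.26 to 6.32 in control retinas, with 2 of 6 higher, Gfap (0.19 ± 0.03; limma adjusted p = 0.0126) and Pdgfra (0.19 ± 0.04; limma adjusted p = 0.0205), against 1.47% of all genes. The other 4 did not pass and went both ways, with S100b at 0.090, Aldh1l1 at 0.074, Aqp4 at -0.021 and Pax2 at -0.057. Whether the higher Gfap and Pdgfra have a part in the values of Agrn and Lamc1 was not tested. Mueller glia markers ran from 9.62 to 9.85 in diabetic and from 9.56 to 9.83 in control retinas (0 of 10 past), with the smallest p for Sox9 (-0.14 ± 0.04; limma adjusted p = 0.0551). Sox9 ran against most of its list, in which 7 of 10 values were above 0, such as Car14 at 0.24 (limma adjusted p = 0.0742), Crym at 0.18 and Vim at 0.14. Of 14 markers of retinal neurons 1 passed, downward, the cone arrestin Arr3 (-0.30 ± 0.07; limma adjusted p = 0.0348), against 1.77% lower among all genes. Of the 14 values 7 were above 0 and 7 below. At an unadjusted limma p under 0.05 there were 3, all lower, against 11.3% lower among all genes. The mean of the 14 markers was 10.06 ± 0.04 in diabetic and 10.10 ± 0.02 in control retinas (SD, n = 6 each). The Arr3 call was held in 4 of the 12 fits that left out 1 array, those without diabetic 2, diabetic 5, control 2 or control 5, and the limma adjusted p over the 12 ran from 0.0331 to 0.0663.

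Tissues next to the retina also carry collagen IV. Lens marker means ran from 5.92 to 7.74 in diabetic and from 6.07 to 6.72 in control retinas (0 of 12 past), pigment epithelium from 6.40 to 7.50 and from 6.44 to 7.10 (0 of 12), and fibroblast markers of sclera and choroid from 5.56 to 5.69 and from 5.56 to 5.63 (0 of 10). Of the 12 lens values 11 were above 0 and 1 below, with a median change of 0.19, against -0.002 over all genes. The groups did not overlap for 1 of the 12 lens genes, against 2.84% of all genes. The smallest p in these lists were those of Lim2 of the lens (0.094 ± 0.026; limma adjusted p = 0.0746), Pmel (0.19 ± 0.08; limma adjusted p = 0.181) and Col1a1 (-0.072 ± 0.022; limma adjusted p = 0.0889). The pigment epithelium list of Pmel had 6 values above 0 and 6 below, and the fibroblast list of Col1a1 had 3 above and 7 below. With the lens mean as a covariate, Agrn had a change of 0.19 and passed (limma adjusted p = 0.0324), and the other 9 genes did not. With the endothelial mean as a covariate none of the 10 passed.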

How the data were processed

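The authors deposited 1 table of log2 values made with RMA, per the submitters' processing notes. The notes as used here name no version. The table's 24973 lines carry Entrez gene numbers. All 12 arrays held the same set of values once sorted, so a shift of most genes cannot be seen and no other scaling between arrays could be tried. Lines were named with the platform annotation (24015) or the RefSeq table of GRCm38.p6 (559), and 399 unnamed lines were dropped. Where a symbol had several lines (4 symbols) the brightest was kept, leaving 24570 genes.

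Tests used limma 3.58.1 (R 4.3.3, lmFit and eBayes, two-sided, no filter), diabetic minus control, with Benjamini-Hochberg adjustment over all genes. The labels call each array a biological replicate. Pairs of genes were compared with an exact permutation test of within-array differences, and correlations with 100000 resamples within groups. The limma script was first tested on simulated data. The genes and lists were chosen with earlier results of these data known. Named were the 10 genes, Lamc1, up to 4 members of each other list that passed or else the one of smallest p, and, from the 3 genes most alike in deviations to each of the 10, the first or all 3. Further list members (Lama1, Tgm2, Mia3, Pxdn, Serpinh1, P4hb, Dag1, Itgb1, Itga1, Mmp2, Mmp9, Kdr, Flt1, Pax2, Aqp4, S100b, Aldh1l1, Car14, Crym and Vim, and the markers Rlbp1, Cdh5 and Cryaa) were named after their values were seen. Alternatives covered filters, variance models, weights, blocks, covariates and arrays left out.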

Additional observations from a re-analysis of the deposited data

Results flagged for a closer look

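Among 74 groups of 6 arrays (the 10 genes, the 5 pair differences, other named genes and the marker means), 6 (8.11%) held an array set apart, judged by its gap to the nearest array as a share of the whole range (given as a ratio). Chance gives about 1 in 20. Of the 10 genes, Col4a5 was low in diabetic 1 (5.74, with the next at 5.84; ratio 0.770). Control 5 was low for Col4a1 minus Col4a2 (0.013, with the next at 0.14; ratio 0.693), for Hspg2 minus Agrn (-1.49, with the next at -1.34; ratio 0.688) and for the pericyte and smooth muscle mean (6.10, with the next at 6.14; ratio 0.652). Smoc2 was high in control 2 (5.64, with the next at 5.54; ratio 0.665), and Pmel, a melanosome gene, was high in diabetic 6 (6.05, with the next at 5.70; ratio 0.663). Control 5 thus accounts for 3 of the 6. Without it, the shift of Hspg2 minus Agrn was -0.27 (exact permutation, adjusted p = 0.0108) and Agrn passed the limma test. Control 5 was picked from these same values and was the only control to overlap the diabetic arrays in this difference. These results without it are therefore no separate support.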

How the results depend on the processing

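Agrn stayed above 0 and Hspg2, Col4a1, Col4a2, Col4a4 and Col4a5 below 0 in all 25 alternative fits. The count of the 10 genes past the test was 0 except that it was 1, Agrn in each case, with array weights (0.18, limma adjusted p = 0.0462), with the replicate block (0.16, limma adjusted p = 0.0496), with the lens mean as a covariate, at a threshold of 0.10, and without control 5, so that it ranged from 0 to 1 as arrays were left out. The count over all genes, 797, was 506 with the replicate block, 459 with the lens and 355 with the endothelial covariate, 291 without diabetic 5 and 6 together, whose label numbers lie apart, 379 without diabetic 2 and 6, 1967 at 0.10, and 325 to 835 as single arrays were left out. Same-numbered animals did not deviate together (correlations from -0.16 to 0.17, own number best in 1 of 6), so the number gives no pairing. For Hspg2 minus Agrn the shift was -0.29 with medians (exact permutation, adjusted p = 0.0649) and -0.24 with sign flips of same-numbered animals as the block (sign-flip test, adjusted p = 0.156). With 6 pairs of animals that test had reached its smallest possible p. It could pass after adjustment only if other gene pairs came as low, and none did. Values near 0 changed sign. Leaving out single arrays gave -0.047 to 0.048 for Col4a3, -0.023 to 0.0034 for Col4a6, -0.0060 to 0.013 for Nid1, -0.013 to 0.011 for Nid2, -0.016 to 0.080 for Col4a3 minus Col4a4 and -0.014 to 0.019 for Nid1 minus Nid2, which was -0.0078 with medians. Without diabetic 2 and 6, Col4a3 had -0.019 and Nid1 -0.0096, and Nid1 had -0.0045 with array weights, -0.0017 with the lens and -0.00078 with the endothelial covariate. The causes were not tested. Signal over background is not known for these genes, 3 of which lie below the median of the gene means.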
